A study of Mus musculus with 8 samples.

Results

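The Notch pathway genes measured here were the 4 receptors Notch1, Notch2, Notch3 and Notch4, the ligands Jag1 and Dll4, the fringe enzymes Mfng and Lfng, and the nuclear proteins Rbpj and Maml1. Each gene is represented by the probe set that carries its symbol and no other and has the highest mean over the 8 arrays. All 10 genes had such a probe set, out of 18193 genes with a probe set of 1 symbol on the array. This choice of probe sets uses no difference between the groups.

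The RNA came from heart ventricles of male mice on the inbred FVB background, 8 to 12 weeks old. In 4 mice, labelled TG, the mlc2v promoter drove a CHF1/Hey2 transgene in the myocardium, and the 4 mice labelled WT were wild type. Every mouse of both groups had undergone ascending aortic banding, a narrowing of the aorta near the heart that raises the load on the left ventricle, 1 week before. Unbanded hearts were not analysed here, and the labels do not say whether the transgenic mice came from more than 1 founder line. Total RNA of each mouse was hybridised to an Affymetrix Mouse Genome 430 2.0 array, and values are log2 expression after GCRMA, a background correction and normalization method for such arrays. The number of arrays, and not a read depth, limits the precision. CHF1/Hey2 is a transcriptional repressor that acts downstream of Notch in many tissues, so the comparison asks how the upstream part of the pathway stood in banded hearts that carry the transgene.

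Notch receptors span the cell membrane and bind Jagged or Delta-like ligands on neighbouring cells. Binding lets proteases cut the receptor, and its intracellular part moves to the nucleus, where it joins the DNA-binding protein Rbpj and a Mastermind-like coactivator and turns on Hey and Hes genes. Fringe enzymes add sugars to the receptor and thereby change which ligands it answers to. In the heart, Notch1, Notch4 and Dll4 are known from endothelial cells and Notch3 from smooth muscle cells and pericytes. The mlc2v promoter acts in the heart muscle cells. RNA of the ventricle does not show which of its cells the transcripts of a member came from.

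The arrays were unequal. Across 9607 genes with measurable levels, 37.2% of genes in TG replicate 2 and 9.27% in TG replicate 3 were more than 2-fold away from the median of the remaining arrays, against 0.749% to 1.55% in each of the 6 further arrays. Pearson correlations of TG replicate 2 with the others, across genes and not over independent replicates, were 0.79 to 0.84. Results are therefore also given without these arrays. Hey2 itself had log2 values of 5.87, 5.70, 6.26 and 6.02 in TG replicates 1 to 4 and of 5.89, 5.96, 5.68 and 6.76 in WT replicates 1 to 4, so its probe set did not separate the groups. The labels do not show whether the transgene carries the sequence that this probe set detects, and the groups are called arrays labelled TG and arrays labelled WT. The 8 cardiomyocyte markers were all measured, with Myh6, the main ventricular myosin heavy chain of the adult mouse, at 15.80 or more in every array. Of the markers on the array, 0 of 4 for lymphocytes and 0 of 5 for skeletal muscle passed the filter on low values.

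Promoters of the members are shown because 2 DNA motifs of the pathway can be read in them directly. RefSeq promoter windows on build GRCm38.p6, which is a C57BL/6J genome and not FVB, were found for 9 of the 10 genes. Mfng had no entry. In the 250 bases before each annotated start, both strands were searched for GTGGGAA, a core site of Rbpj, and for CACGTG, an E-box of the kind that Hey proteins are known to bind. Lfng was the only gene of the 9 with a match to either, and it had both. Other sequences that these proteins may bind were not searched, so a window without a match may still hold a site. Its E-box starts 112 and its Rbpj site 109 bases before the annotated start, and the 2 share 3 bases. Over 32851 promoter windows of this length, 5.42% held the Rbpj core, 6.02% the E-box and 0.35% both. The windows of Lfng (chr5:140607091-140607340, plus strand) and of Dll4 (chr2:119325534-119325783, plus strand), the member with the largest difference below, are given with matches in capitals.
Lfng: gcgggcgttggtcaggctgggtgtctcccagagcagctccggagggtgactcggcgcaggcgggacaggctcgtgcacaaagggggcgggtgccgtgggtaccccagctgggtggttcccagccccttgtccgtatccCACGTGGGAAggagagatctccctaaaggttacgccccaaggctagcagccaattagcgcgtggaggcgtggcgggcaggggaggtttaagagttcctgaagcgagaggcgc
Dll4: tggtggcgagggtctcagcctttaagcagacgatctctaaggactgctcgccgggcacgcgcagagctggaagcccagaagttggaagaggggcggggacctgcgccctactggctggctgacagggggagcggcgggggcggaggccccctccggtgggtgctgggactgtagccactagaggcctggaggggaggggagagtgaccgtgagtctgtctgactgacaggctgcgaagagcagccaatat
A match describes the letters of the window and does not show that a protein bound there.

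No member of the pathway differed between the groups beyond the spread of the arrays. With limma and Benjamini-Hochberg adjustment over all 9607 genes, 0 of the 10 members passed at 0.05, as did 0% of all genes in either direction, and the smallest adjusted p was 0.813 both among the members and over all genes. Before adjustment, 0 members had a limma p under 0.05, against 1.59% of all genes, and without TG replicate 2 the count was again 0, against 2.41%. The values of the 2 groups overlapped for every one of the 10 members. Over all genes 2.48% did not overlap, a share so low that overlap in all 10 does not set the members apart. For the members, the median 95% confidence interval, not adjusted for the number of genes, had a half-width of 0.57 log2 units. An observed difference smaller than that could not be told from 0 for a typical member. Passing with adjustment over 9607 genes would need a larger one. Labels do not describe the mice further. The limma p-values weigh a difference against a spread between arrays that is pooled over both groups and drawn toward that of all genes. They do not reflect the spread of each group by itself, which was larger in the arrays labelled TG for 89.1% of genes.

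**Figure D1:**
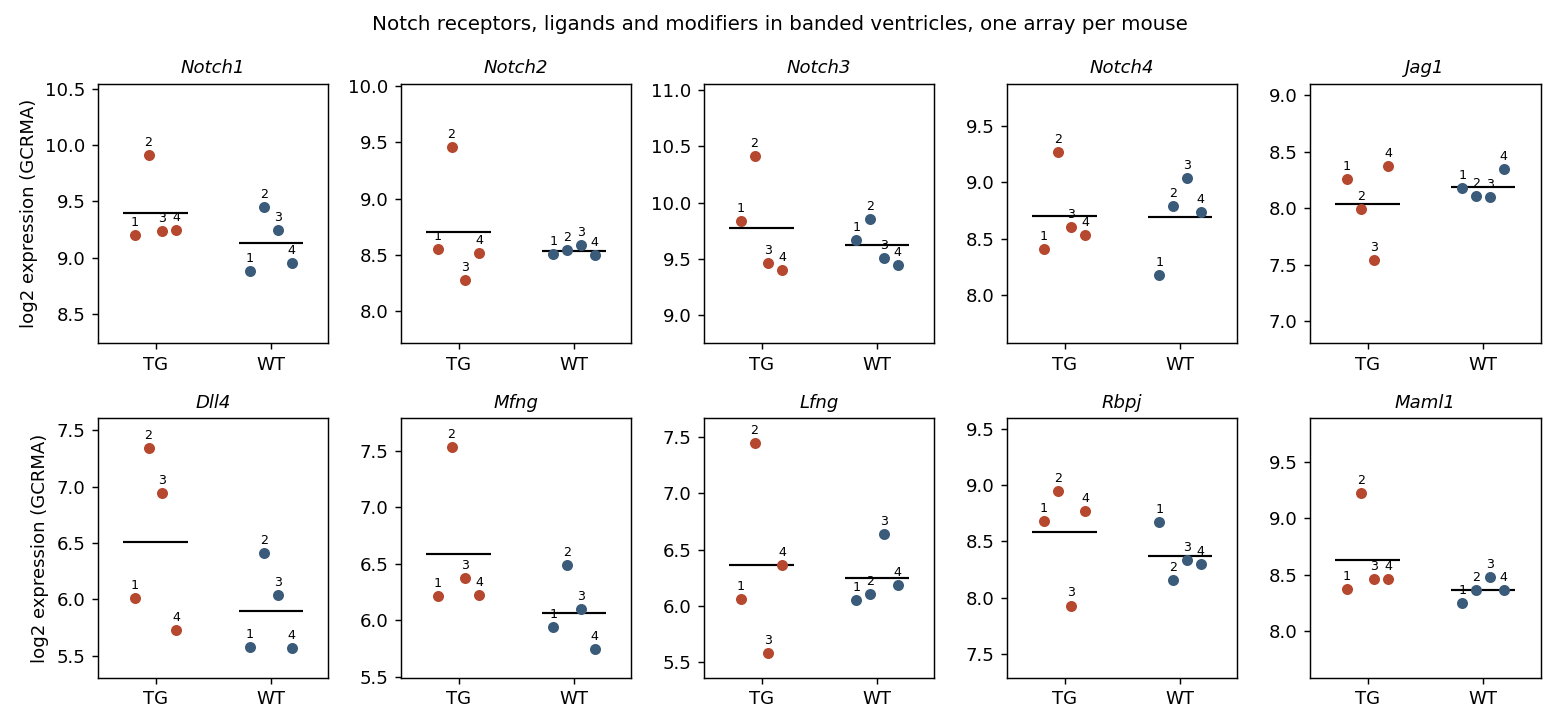
Log2 expression of the 10 genes in each array, with TG at the left and WT at the right of each panel, points numbered by replicate, a black line at each group mean and the same span of log2 units in every panel. TG replicate 2 holds the highest of the 8 values for every gene except Jag1, and the 2 groups overlap in each panel.

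Among the receptors, Notch1, which is needed for endothelial and valve development, was measured by probe set 1418634_at. Its log2 values were 9.20, 9.91, 9.24 and 9.25 in TG replicates 1 to 4 and 8.88, 9.45, 9.25 and 8.95 in WT replicates 1 to 4. TG replicate 2 stood above all other arrays, while TG replicates 1, 3 and 4 lay inside the range of the arrays labelled WT. The group means of Notch1 were 9.40 ± 0.34 and 9.13 ± 0.27 in arrays labelled TG and WT (SD, n = 4 each), a difference of 0.27 (SE 0.223, limma adjusted p = 0.813). It was 0.10 without TG replicate 2. The other Notch1 probe set, 1418633_at, gave a difference of 0.31 and was also highest in TG replicate 2, at 8.01, against 6.77 to 7.44 in the remaining 7 arrays.

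Notch2, a receptor of many cell types including smooth muscle, was 8.55, 9.46, 8.28 and 8.52 in TG replicates 1 to 4 and 8.51, 8.54, 8.59 and 8.50 in WT replicates 1 to 4. The 4 arrays labelled WT were nearly alike, and TG replicates 2 and 3 stood above and below them. The SD of Notch2 was 0.52 over the arrays labelled TG and 0.04 over those labelled WT, and the difference of 0.17 (SE 0.255, limma adjusted p = 0.832) turned to -0.09 without TG replicate 2. The other Notch2 probe set did not exceed 2.35 in any array and could not be read.

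Notch3, the receptor of vascular smooth muscle and pericytes, had values of 9.84, 10.41, 9.46 and 9.40 in TG replicates 1 to 4 and of 9.67, 9.85, 9.51 and 9.45 in WT replicates 1 to 4. Its probe set, 1421965_s_at, has the suffix that Affymetrix gives to probes shared by several transcripts. The difference was 0.16 (SE 0.247, limma adjusted p = 0.833), and -0.05 without TG replicate 2. Probe set 1421964_at, read in all 8 arrays as well, gave 0.24, with its highest value of 8.57 again in TG replicate 2.

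Notch4, a receptor largely restricted to endothelium, was 8.41, 9.27, 8.60 and 8.53 in TG replicates 1 to 4 and 8.18, 8.79, 9.04 and 8.74 in WT replicates 1 to 4. In TG replicates 1, 3 and 4 it lay below 3 of the 4 arrays labelled WT. The means of Notch4, 8.70 ± 0.38 in arrays labelled TG and 8.69 ± 0.36 in arrays labelled WT (SD, n = 4 each), differed by 0.02, a value whose sign turned, to -0.004 and -0.011, when arrays were centred on their medians or normalized by quantiles once more. Without TG replicate 2 the difference was -0.17. The interval with all 8 arrays ran from -0.57 to 0.60 on the log2 scale. Its remaining 2 probe sets stayed below 2.82 in every array.

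Of the ligands, Dll4 had the largest difference of the 10 members. Dll4 is the Delta-like ligand of arterial and sprouting endothelium. Its log2 values were 6.01, 7.34, 6.94 and 5.73 in TG replicates 1 to 4 and 5.58, 6.41, 6.04 and 5.57 in WT replicates 1 to 4. TG replicates 2 and 3 lay above every array labelled WT, whereas TG replicates 1 and 4 lay within the WT range. The means were 6.51 ± 0.76 in arrays labelled TG and 5.90 ± 0.40 in arrays labelled WT (SD, n = 4 each), a ratio of 1.52 that did not pass (limma adjusted p = 0.813; exact two-sided permutation p = 0.229, with 0.0286 the lowest value that 4 against 4 arrays allow). The difference of 0.61 had a 95% confidence interval of -0.27 to 1.48. With 1 array left out it ran from 0.33 without TG replicate 2 to 0.86 without TG replicate 4, and without TG replicates 2 and 3 it was -0.03. The other Dll4 probe set, 1421827_at, was 5.25, 6.77, 5.84 and 5.26 in TG replicates 1 to 4 and 5.05, 6.43, 4.62 and 5.23 in WT replicates 1 to 4. Its difference was 0.44, and TG replicate 3 lay below WT replicate 2 in this probe set. Both probe sets were highest in TG replicate 2 and, among arrays labelled WT, in WT replicate 2.

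Jag1, the Jagged ligand of smooth muscle and endothelium, was the member whose mean was lower in arrays labelled TG. Its values were 8.26, 7.99, 7.54 and 8.37 in TG replicates 1 to 4 and 8.18, 8.11, 8.10 and 8.35 in WT replicates 1 to 4. TG replicate 3 was the lowest array, and TG replicate 2 was not high for this gene. The difference of -0.15 (SE 0.21, limma adjusted p = 0.823) changed sign to 0.02 without TG replicate 3. The remaining 2 Jag1 probe sets did not exceed 4.90 in any array.

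The fringe enzymes Mfng and Lfng catalyse the same reaction, the addition of N-acetylglucosamine to fucose on the receptor. Mfng had values of 6.21, 7.54, 6.37 and 6.22 in TG replicates 1 to 4 and of 5.94, 6.49, 6.10 and 5.74 in WT replicates 1 to 4. Apart from TG replicate 2, the arrays labelled TG lay close together and inside the WT range. The Mfng means were 6.59 ± 0.64 in arrays labelled TG and 6.07 ± 0.32 in arrays labelled WT (SD, n = 4 each), a ratio of 1.43 that did not pass (limma adjusted p = 0.813; exact two-sided permutation p = 0.20). Its difference was 0.52, or 0.20 without TG replicate 2. Mfng has no further probe set on the array.

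Lfng was 6.06, 7.45, 5.58 and 6.36 in TG replicates 1 to 4 and 6.05, 6.11, 6.64 and 6.19 in WT replicates 1 to 4. The arrays labelled TG held both its highest and its lowest value, in replicates 2 and 3. The difference of Lfng, the gene with the overlapping motifs shown above, was 0.11 (SE 0.375, 95% confidence interval -0.74 to 0.97, limma adjusted p = 0.914). It was -0.25 without TG replicate 2 and 0.37 without TG replicate 3. The other Lfng probe set reached at most 3.03.

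**Figure D2:**
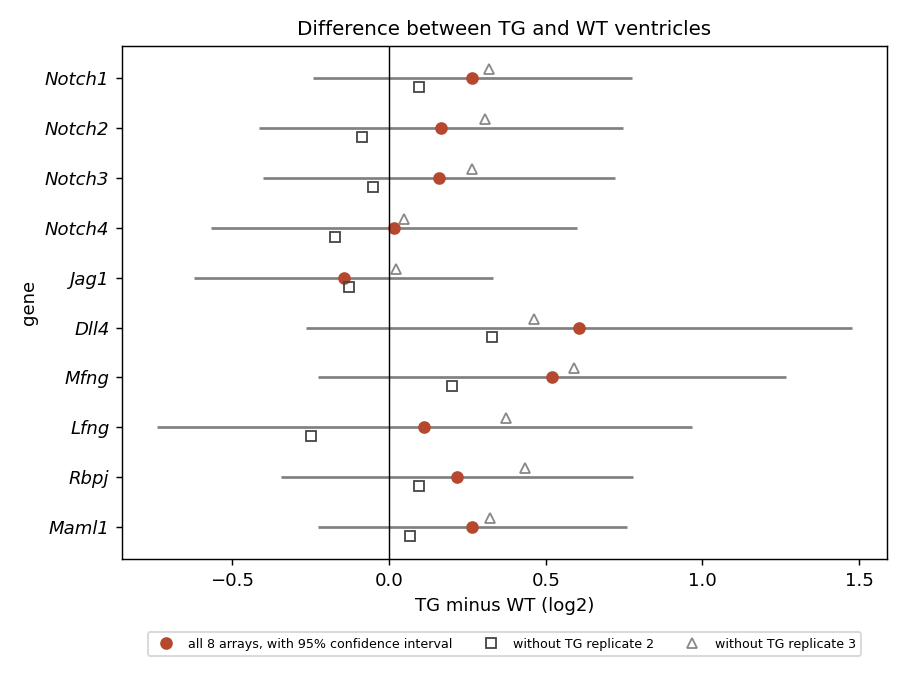
Difference of the group means, TG minus WT in log2 units, for each gene with all 8 arrays (filled circles, with 95% confidence intervals from limma as lines), without TG replicate 2 (squares) and without TG replicate 3 (triangles). Every interval includes 0, and the largest differences are those of Dll4 at 0.61 and Mfng at 0.52.

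Rbpj and Maml1 carry the nuclear step. Rbpj was 8.68, 8.95, 7.93 and 8.77 in TG replicates 1 to 4 and 8.67, 8.16, 8.33 and 8.30 in WT replicates 1 to 4. TG replicates 1, 2 and 4 lay above all arrays labelled WT, with TG replicate 1 at 8.68 against 8.67 in WT replicate 1, and TG replicate 3 lay below them all. The difference of 0.22 (SE 0.247, limma adjusted p = 0.813) was 0.43 without TG replicate 3 and 0.09 without TG replicate 2. The other Rbpj probe sets did not show this pattern. Probe set 1448957_at was 7.72, 7.33, 7.13 and 7.33 in TG replicates 1 to 4 and 7.65, 7.45, 7.10 and 7.12 in WT replicates 1 to 4, a difference of 0.05, and 1418114_at differed by 0.03. In both of these, TG replicate 1 and not TG replicate 2 held the highest value.

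Maml1, the Mastermind-like coactivator, was 8.37, 9.22, 8.46 and 8.46 in TG replicates 1 to 4 and 8.25, 8.36, 8.48 and 8.36 in WT replicates 1 to 4. TG replicate 2 lay apart, and the other 3 arrays labelled TG lay within the WT range. The difference was 0.27 (SE 0.216, limma adjusted p = 0.813) with all arrays and 0.07 without TG replicate 2. The Maml1 probe set carries the same suffix as that of Notch3, and the remaining 2 probe sets stayed below 4.47 in every array.

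**Figure D3:**
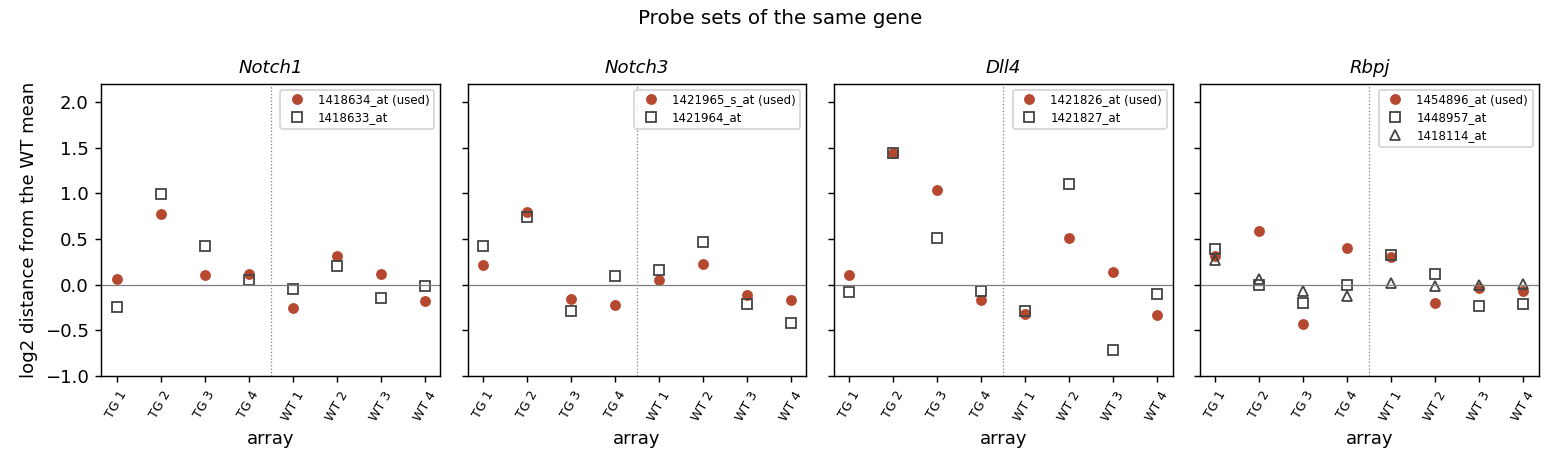
Log2 distance of each array from the mean of the 4 arrays labelled WT, for the probe sets of Notch1, Notch3, Dll4 and Rbpj that exceeded a log2 value of 5 in at least 4 arrays (filled circles, the probe set used; open symbols, the others). The probe sets of Notch1, Notch3 and Dll4 share their highest array, TG replicate 2, while those of Rbpj do not.

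As a group, 9 of the 10 members had a higher mean in arrays labelled TG, with a median difference of 0.19, against 57% of all genes and a median of 0.06. Without TG replicate 2 the count was 5 of 10 with a median of 0.01, against 55.9% of all genes and a median of 0.03. Without TG replicate 3 all 10 means were higher, with a median of 0.32, against 60.6% of all genes and a median of 0.12. Without both arrays 6 of 10 were higher, with a median of 0.03, against 65.3% and 0.05 over all genes. With each array centred on its median, Notch4 changed sign and 8 of 10 means were higher, against 54.8% of all genes.

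The position of TG replicate 2 was common to the members. This array held the highest of the 8 values for 9 members, the exception being Jag1, and for 46.8% of all genes. Dll4, Mfng and Lfng lay over 2-fold above the median of the other 7 arrays there, as did 16.8% of all genes, and no member lay that far from the median in any other array. The SD was larger over the arrays labelled TG than over those labelled WT for all 10 members, against 89.1% of all genes. Over TG replicates 1, 3 and 4 it was larger for 6 members, against 63.6% of all genes.

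Most markers of vessel cells were also high in TG replicate 2. Of 13 endothelial markers, such as Pecam1 and Cdh5, 10 were highest in TG replicate 2, as were 46.8% of all genes. The median of the 13 lay at 0.90 from the WT mean there, whereas TG replicates 1, 3 and 4 gave 0.05 to 0.11. Among the arrays labelled WT, 11 of the 13 were highest in WT replicate 2, at a median of 0.34, as were 21.6% of all genes. So were 4 of the 10 members, Notch1, Notch3, Dll4 and Mfng. Notch4 was not, with 9.04 in WT replicate 3 against 8.79 in WT replicate 2. In TG replicate 3 the endothelial median lay at 0.07, while Dll4 lay at 1.04 from its WT mean and Lfng at -0.67. Mean levels of the endothelial list ran from 9.48 to 10.06 in arrays labelled TG and from 9.23 to 9.71 in arrays labelled WT. None of the 13 passed, 12 had a higher mean in arrays labelled TG, and the median difference was 0.30, or 0.06 without TG replicate 2. The list did not move as a block, since Kdr, Flt1 and Tek were not highest in TG replicate 2, where Flt1 was 8.54 against 9.29 or more in every other array.

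Mural markers, of smooth muscle and pericytes, had a median of 0.98 in TG replicate 2 against -0.19 to 0.20 in TG replicates 1, 3 and 4. In TG replicate 2, 6 of 9 were highest, as were 46.8% of all genes. Rgs5, Abcc9 and Myh11 were lowest there, at 11.69, 10.39 and 8.18 against at least 13.12, 12.24 and 8.58 elsewhere. Mean levels of this list ran from 10.18 to 11 in arrays labelled TG and from 10.60 to 10.77 in arrays labelled WT, and those of the 8 cardiomyocyte markers from 14.81 to 15.28 and from 15.16 to 15.22. In TG replicate 3, where Jag1, Lfng, Rbpj and Notch2 had their lowest values, the medians of the macrophage and fibroblast lists lay at -1.16 and -0.81. In TG replicate 2 they lay at 0.83 and -0.12. Elsewhere the macrophage median ran from -0.37 to 0.50 and the fibroblast median from -0.24 to 0.24. Neither list moved as a block. In TG replicate 2, 4 of 6 macrophage and 1 of 6 fibroblast markers were highest, as were 46.8% of all genes. Mrc1 and Lum were lowest there, at 8.52 and 11.33, while Tcf21 was highest, at 10.32. Col1a1 was 10.44 in TG replicate 3 and 13.59 or more in every other array. Alas2, the sole erythroid marker measured, lay at 0.24, 1.23, 1.28 and -1.68 in TG replicates 1 to 4 and at -0.42 to 0.70 in arrays labelled WT. The atrial list had the largest median difference of the marker lists, 0.64, with 4 of 5 means higher and 0 genes passing. The exception was Nppa, with a difference of -0.44. It was 12.96 in TG replicate 3 and 14.66 or more in every other array. Whether the list reads atrial tissue in these samples was not tested. An unadjusted limma p under 0.05 was found for 2 of the 5, against 1.59% of all genes. The median of the atrial list was 0.08, 0.87, 0.86 and 0.65 in TG replicates 1 to 4 and -0.33 to 0.36 in arrays labelled WT. Its median difference was 0.53 without TG replicate 2 and 0.41 without TG replicates 2 and 3. Mean levels of the atrial list ran from 10.49 to 11.14 in arrays labelled TG and from 10.14 to 10.69 in arrays labelled WT. The part of these markers in the levels of the members was not tested. In ventricle RNA, fewer cells of a type and less RNA per cell cannot be told apart.

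**Figure D4:**
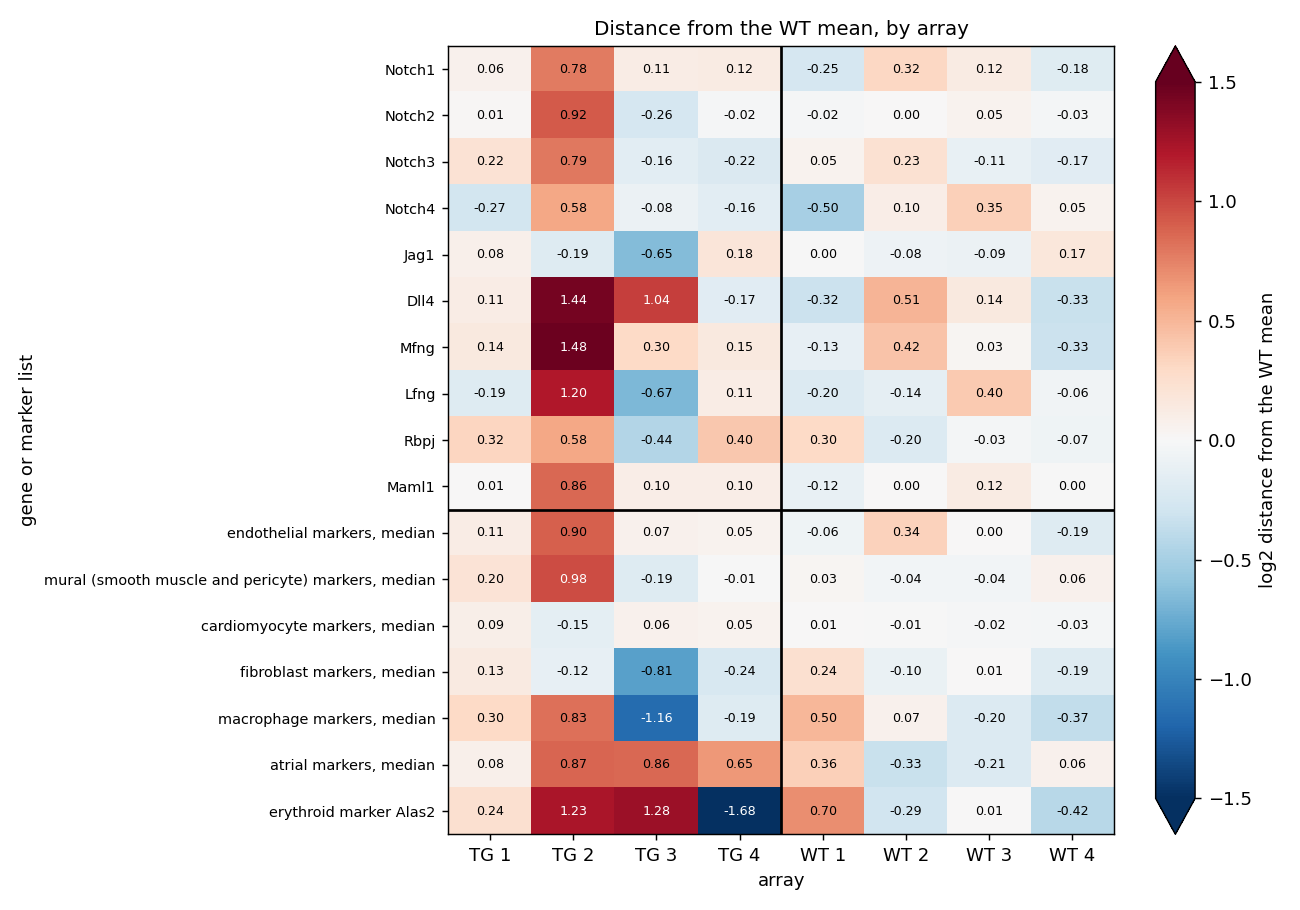
Log2 distance of each array from the mean of the 4 arrays labelled WT, for the 10 genes (upper rows) and for the median of each marker list with a measured gene (lower rows; erythroid is Alas2 alone), with higher in red, lower in blue and the value printed in each cell. The column of TG replicate 2 is red for every gene except Jag1 and for the endothelial, mural, macrophage, atrial and erythroid rows.

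Other genes of the pathway did not pass either. Of 48 listed, 35 were measured, and 0 were called higher and 0 lower with limma at 0.05. Of these, 16 had a higher and 19 a lower mean in arrays labelled TG, with a median difference of -0.01, against 0.06 over all genes. An unadjusted limma p under 0.05 was found for 1 of the 35, against 1.59% of all genes. Among the ligands, Jag2 was the sole further gene measured and differed by 0.32, or by 0.07 without TG replicate 2. Of 13 genes of receptor glycosylation and trafficking, 8 had a higher mean, but 4 without TG replicate 2 and 10 without TG replicate 3. Rfng, the third fringe enzyme of the mouse, differed by 0.39 (SE 0.2, limma adjusted p = 0.813), and by 0.24 without TG replicate 2. Mib1, the ubiquitin ligase that lets ligands be taken up into the sending cell, was 4.89 in TG replicate 2 and 8.00 or more in every other array. Its difference of -1.09 was -0.24 without that array.

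The proteases that cut the receptor had 2 of 6 measured genes with a higher mean, and 3 without either TG replicate 2 or TG replicate 3. Adam10, which makes the outer cut, was 10.75, 8.93, 9.93 and 10.93 in TG replicates 1 to 4 and 10.82, 10.67, 10.93 and 10.82 in WT replicates 1 to 4. Its difference was -0.68, and -0.28 without TG replicate 2. Psenen, a subunit of gamma-secretase, differed by 0.36, or by 0.13 without that array. Of 7 nuclear partners, 2 had a higher mean, or 3 without TG replicate 2 and 1 without TG replicate 3, and their median in TG replicate 2 was -1.04. Ep300, a histone acetyltransferase recruited by Mastermind proteins, and Cir1, a corepressor that binds Rbpj, differed by -0.43 and -0.56. Without TG replicate 2 they differed by -0.01 and -0.16. Over the wider list, TG replicate 2 held the highest value for 18 of the 35 genes, against 46.8% of all genes.

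Of 8 measured target genes, 3 had a higher mean, 2 without TG replicate 2 and 5 without TG replicate 3 or without both. Hey1, a repressor related to Hey2, was 6.61, 7.40, 7.47 and 7.33 in TG replicates 1 to 4 and 6.59, 6.97, 6.26 and 6.63 in WT replicates 1 to 4. In 3 arrays labelled TG its values lay above all WT values, and TG replicate 1 lay among them. The Hey1 difference was 0.59 (SE 0.245, limma adjusted p = 0.813), and 0.36 without TG replicates 2 and 3. The median of the atrial list above was likewise higher in TG replicates 2, 3 and 4 than in TG replicate 1. Of its genes, Myl7, Sln and Myl4 followed this order, and Nppa and Stard10 did not. Nppa was 15.08 in TG replicate 1 against 15.02 and 12.96 in TG replicates 2 and 3. Stard10 was 7.19 in TG replicate 1 against 7.14 in TG replicate 4. The part of the atrial markers in the Hey1 values was not tested. Heyl, the third Hey gene, differed by 0.40, and by -0.02 without TG replicate 2, where it was 9.60. Hes1 and Nrarp, common readouts of Notch activity, had means of 7.47 ± 0.44 and 7.88 ± 0.48 in arrays labelled TG and of 7.58 ± 0.32 and 7.92 ± 0.47 in arrays labelled WT (SD, n = 4 each), differences within the spread of either group. Both were named after their values were seen.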

How the data were processed

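The authors deposited log2 expression values of 8 Affymetrix Mouse Genome 430 2.0 arrays, and the submitters' processing notes name GCRMA without a version. The values lay between 0.837 and 16.11. In GCRMA output, unexpressed probe sets share a low floor at which differences cannot be read. Of 45101 probe sets, 64 were controls and left out, and 34945 others carried 1 gene symbol in the platform annotation. Counted with the controls included, 932 carried several and 9211 had no entry. Probe sets with 1 symbol and a log2 value above 5 in at least 4 of the 8 arrays were kept, then the one with the highest mean for each gene, leaving 9607 genes. Groups came from the sample titles. TG minus WT was tested in R 4.3.3 by lmFit and eBayes of limma 3.58.1 over all 8 arrays, with Benjamini-Hochberg adjustment at 0.05 over all genes. The steps were tested on simulated data in which, for each gene, all arrays had the same spread. No simulated array stood apart as TG replicate 2 did, so the simulation does not cover that case. The members and lists were chosen with earlier results of these data known. Beside the members, the text names up to 2 genes with the smallest p in each pathway sub-list, and markers that give a list's range. Outside this rule, Hey2 is named as the gene of the transgene, and Hes1 and Nrarp were named after their values were seen. Alternatives changed the filter, scaling, probe set rule and model, and left out arrays. Same-numbered mice were not taken as pairs, since the labels give no such link and their deviations correlated at 0.296, -0.00561, -0.334 and 0.20.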

Additional observations from a re-analysis of the deposited data

Results flagged for a closer look

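In 3 of 20 sets of 4 values (10 genes in each group), 1 array lay far from the other 3 of its group, by a gap that took up most of the range of the set and was past the 95% critical value of Dixon's test. Chance alone gives about 1 in 20. Over all genes tested, 11.9% of such sets were that far apart, 17.1% of those labelled TG and 6.61% of those labelled WT, and TG replicate 2 was the array in 15.5% of the sets labelled TG. For the members the array was TG replicate 2 each time. Notch1 was 9.91 there, against 9.20 to 9.25 in the other arrays labelled TG. Mfng was 7.54, against 6.21 to 6.37. Maml1 was 9.22, against 8.37 to 8.46. As TG replicate 2 differed from the other arrays across 37.2% of all genes, the 3 values are not independent of each other, and their cause was not tested.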

How the results depend on the processing

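No member passed at an adjusted p of 0.05 under any of the alternatives run, which were the filters, scalings, probe set rules, models and left-out arrays, with adjusted p between 0.269 and 1 over members and alternatives. The number of genes called was 0 in every alternative except array weights, where it was 1 and not a member. Numbers at an unadjusted limma p under 0.05 ran from 34 without WT replicate 3 to 541 without TG replicate 4, and were 43 without WT replicate 4, 282 without TG replicate 1 and 1529 with array weights, against 153. For the members' median of 0.19, leaving out 1 array gave 0.01 to 0.32, and array weights gave 0.06. The wider pathway median of -0.01 ran from -0.06 to 0.10 with 1 array left out.

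The sign of a difference turned in 16 of 176 values. Notch4 turned to -0.004 with median centring, -0.011 with quantile normalization and -0.31 with array weights, and ran from -0.17 to 0.13 with 1 array left out. Array weights also turned Jag1 to 0.023 and Lfng to -0.20. With 1 array left out, Notch2 ran from -0.086 to 0.31, Notch3 from -0.051 to 0.29, Lfng from -0.25 to 0.37 and Jag1 from -0.26 to 0.022. Without TG replicates 2 and 3 together, the differences of Notch2, Notch4, Jag1, Dll4 and Lfng were -0.001, -0.21, 0.13, -0.028 and -0.04. The sources of these shifts were not tested beyond naming the arrays. Dll4, Mfng and Lfng could not be given with a filter at 7, nor Maml1 without _x_at and _s_at probe sets. With the replicate number as a block the members' median was 0.192 and 0 genes were called. In that fit Dll4 had an unadjusted p of 0.0361 (limma adjusted p = 0.845). Without the block, Dll4 differed by 0.33 to 0.86 with 1 array left out, with an unadjusted p of 0.0477 without TG replicate 4 (limma adjusted p = 0.645). Rbpj had an unadjusted limma p of 0.0471 without TG replicate 3 and of 0.0275 with array weights (adjusted p = 0.603 and 0.269).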
